A study of Homo sapiens with 6 samples.

Results

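Gluconeogenesis genes were examined in Huh7, a human hepatocellular carcinoma cell line, and in a lenvatinib-resistant line derived from it. The members were the rows of the deposited table whose symbol was PCK1, PCK2, PC, FBP1, G6PC, G6PC3, SLC37A4 or PPARGC1A, which made 8 of the 26184 genes and loci listed. All 8 symbols were found, and all 8 passed the filter on low counts, 3 of them (PCK1, G6PC and PPARGC1A) only with the help of the Huh7 LR libraries. The RNA-seq libraries came from 3 samples of the parental cells, Huh7 P, labelled wild type and untreated, and 3 samples of Huh7 LR, which carry the same genotype label and had been exposed to lenvatinib, an inhibitor of several receptor tyrosine kinases, rising from 1 to 20 μM for 10 months. Huh7 LR is 1 line, kept in 20 μM lenvatinib, and the methods do not say whether the drug was present when RNA was taken. The samples are called independent but not said to be separate cultures, so p-values measure the spread between these samples, and drug exposure and the separate passage of the lines cannot be told apart.

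Gluconeogenesis makes glucose from lactate, amino acids and glycerol, chiefly in hepatocytes and the kidney cortex. Pyruvate carboxylase, encoded by PC, makes oxaloacetate in mitochondria, and phosphoenolpyruvate carboxykinase turns it into phosphoenolpyruvate, either in the cytosol (PCK1) or in mitochondria (PCK2). The steps that glycolysis cannot reverse at the other end are carried out by fructose-1,6-bisphosphatase (FBP1) and by glucose-6-phosphatase, whose catalytic subunit in liver is G6PC and in most tissues G6PC3, fed by the glucose-6-phosphate transporter SLC37A4. PPARGC1A encodes PGC-1α, a coactivator that raises transcription of PCK1 and G6PC in the fasted liver.

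The sequences before the RefSeq transcript start of G6PC, the member that rose, and of PCK2, the more abundant carboxykinase gene and a member that fell, are shown to set a liver-restricted start beside a broadly used one. They are RefSeq sequences of GRCh38.p14, both on the plus strand, from 250 bases before the RefSeq start to the base before it. That start differs from the GENCODE gene start given with each member: the PCK2 stretch lies wholly within the GENCODE span of PCK2, which begins further upstream, and the G6PC stretch ends at the second base of the GENCODE span of G6PC. Capitals mark letters that match one of the motifs searched, each read on both strands: the cyclic AMP response element TGACGTCA and its core TGACG, which lies inside it, the forkhead motif TGTTTAC and the insulin response motif TGTTTTG, the C/EBP and ATF type motif TTGCATCA, the nuclear receptor motif AGGTCA, the HNF1 type motif GTTAAT and the E-box CACGTG.
G6PC, chr17:42900549-42900798: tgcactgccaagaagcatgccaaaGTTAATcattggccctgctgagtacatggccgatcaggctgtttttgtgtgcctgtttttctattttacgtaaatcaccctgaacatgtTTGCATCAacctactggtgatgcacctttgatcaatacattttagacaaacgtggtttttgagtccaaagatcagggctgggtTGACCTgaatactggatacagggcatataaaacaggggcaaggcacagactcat
PCK2, chr14:24094061-24094310: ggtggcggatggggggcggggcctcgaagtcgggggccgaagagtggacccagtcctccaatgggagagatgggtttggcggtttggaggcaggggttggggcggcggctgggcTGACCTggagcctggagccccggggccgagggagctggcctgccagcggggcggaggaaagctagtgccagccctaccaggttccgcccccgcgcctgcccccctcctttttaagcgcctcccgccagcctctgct
The G6PC stretch held GTTAAT, TTGCATCA and, on the other strand, AGGTCA, at 226, 137 and 54 bases before the start. Counted over all 35116 RefSeq windows of 300 bases, which also take in the first 50 bases after the start, these letters occur in 6.88%, 0.866% and 13.8% of windows. The PCK2 stretch held AGGTCA on the other strand, 136 bases before the start. The G6PC window had 45.7% G and C with 3 CG steps, and the PCK2 window 71.7% with 23. Letters alone do not show that a factor binds.

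The reads counted on genes totalled 62738937 to 71427573 per Huh7 P library and 63233655 to 70768720 per Huh7 LR library. Levels are given as CPM, read counts relative to library size (edgeR's cpm), adjusted by edgeR's TMM factors, or, where genes are compared with each other, as FPKM, the authors' value per transcript length and library size. By counting error alone, a library without a read may still hold a level of 3 counts, or 0.0418 to 0.0486 CPM. Values after ± are SDs over the libraries of a line. Differences between the lines were tested by edgeR's quasi-likelihood test over 17531 genes and loci, and a gene is said to rise or fall at an adjusted p under 0.05. All 7 hepatocyte markers, ALB, APOA1, APOB, TTR, TF, SERPINA1 and AFP, were abundant, with a summed level of 43167 to 52288 CPM in Huh7 P and 54657 to 57705 CPM in Huh7 LR, and 4 of them rose and 0 fell at an adjusted p under 0.05. Of 6 fibroblast markers 2 were tested, COL1A1 and PDGFRB, and these rose, while the others had too few counts to test. The sum of the 6 was 2.16 to 2.28 CPM in Huh7 P and 5.02 to 8.02 CPM in Huh7 LR, and DCN had 0 counts in all 6 libraries. Of 4 endothelial markers 2 were tested, PECAM1 and VWF, and these rose. VWF was tested only through its 19 to 26 counts per Huh7 LR library (0 to 8 per Huh7 P library). The sum of the 4 was 38.8 to 47.5 CPM in Huh7 P and 65.0 to 71.2 CPM in Huh7 LR, while CDH5 and KDR had 0 counts in all 6 libraries. Of 6 leukocyte markers 3 were tested, and LYZ fell and 0 rose. CD14 and CD74 did not pass, with log2 fold changes of 0.53 and 0.52 (edgeR adjusted p = 0.0708 and 0.395). The sum of the 6 was 62.4 to 67.7 CPM in Huh7 P and 10.1 to 14.0 CPM in Huh7 LR. LYZ alone went from a mean of 63.7 CPM to 9.19 CPM, and TYROBP and HLA-DRA had 0 counts. Over everything tested, 23.3% rose and 22.4% fell. The part of these markers in the results on gluconeogenesis genes was not tested.

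Of the 8 gluconeogenesis genes, G6PC rose in Huh7 LR, PC and PCK2 fell, and PCK1, FBP1, G6PC3, SLC37A4 and PPARGC1A did not pass the test. Over all genes and loci tested, 23.3% rose and 22.4% fell, so 1 of 8 higher and 2 of 8 lower do not stand above that background. The median log2 fold change of the 8 genes was 0.057, against 0.0046 over everything tested. In 4 members the lines did not overlap in CPM, with G6PC and PPARGC1A higher in every Huh7 LR library and PC and PCK2 lower in every one. On FPKM PCK2 did overlap, since Huh7 LR replicate 1, at 51.3 FPKM, lay above Huh7 P replicate 2, at 49.7 FPKM. Over everything tested, 28.2% had such a gap upwards and 27.7% downwards. G6PC and PPARGC1A passed the filter only with the help of the Huh7 LR libraries, which favours a gap upwards. Their count is therefore not read against the 28.2%. The study asked for a change above 2-fold with a p under 0.001 and does not say whether that p was adjusted. With an unadjusted p, edgeR called 1 of 8 members, G6PC, where 5.37% of all genes and loci were called higher and 2.08% lower. With an adjusted p it called 0 of 8, where 4.43% were called higher and 1.78% lower. DESeq2 called 0 either way, and 2 members, G6PC and PPARGC1A, were past 2-fold at an unadjusted p under 0.05 in edgeR.

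**Figure D1:**
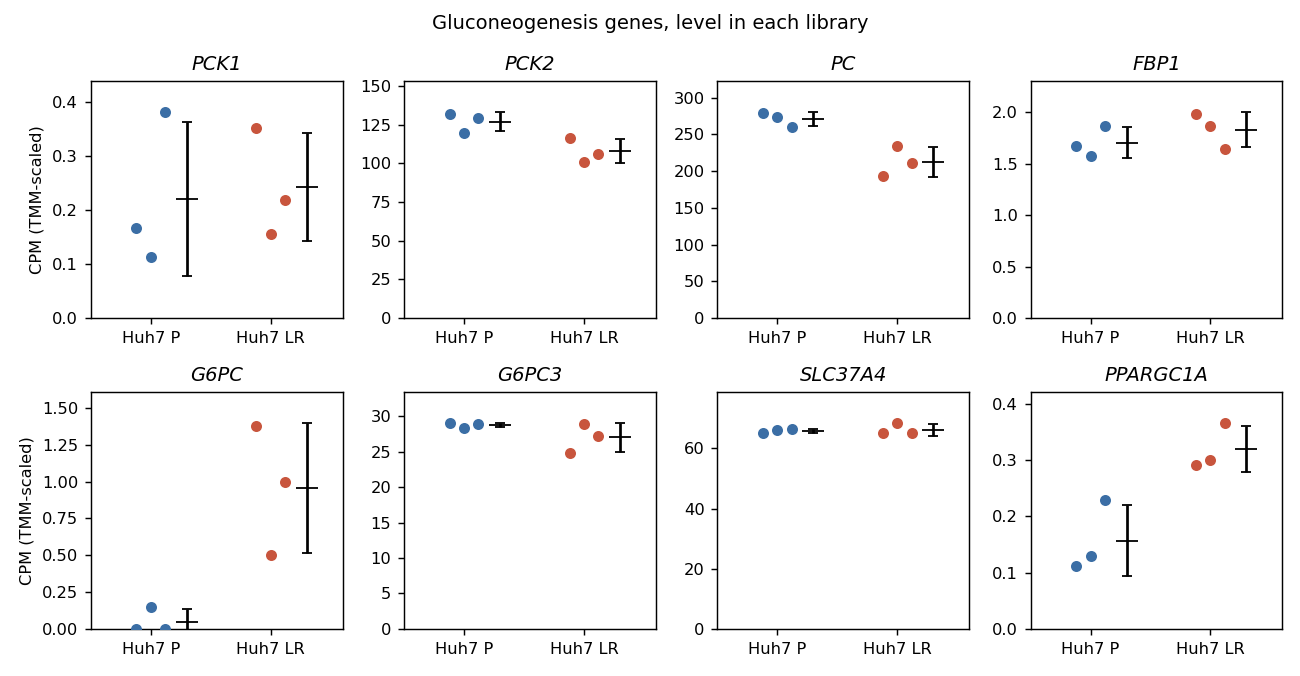
CPM scaled by TMM (linear axis from 0, a separate scale in each panel) for the 8 gluconeogenesis genes in the 3 Huh7 P libraries (blue) and the 3 Huh7 LR libraries (red), with the mean and SD in black (the bar of G6PC in Huh7 P is cut at 0). G6PC and PPARGC1A lie higher and PC and PCK2 lower in every Huh7 LR library, and the other 4 genes overlap.

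PC (ENSG00000173599, chromosome 11, 66848233 to 66958376, minus strand, GRCh38) had the highest mean FPKM of the 8 genes in both lines. Its level was 279, 274 and 261 CPM in Huh7 P and 194, 234 and 211 CPM in Huh7 LR. Every Huh7 LR library was below every Huh7 P library, and replicate 2 was the nearest to the parental level. The mean went from 271 ± 9.44 CPM (n = 3) to 213 ± 20.3 CPM (n = 3), or -0.35 on the log2 scale (standard error 0.08, edgeR adjusted p = 0.00445). This is a ratio of 0.786 with a 95% interval of 0.696 to 0.888, well within 2-fold. LRFN4 lies on the opposite strand and shares 621 of the 5927 exon bases of PC (10.5%), but it had 76 to 159 counts per library against at least 12650 for PC.

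PCK2 (ENSG00000100889, chromosome 14, 24094053 to 24110598, plus strand), the mitochondrial carboxykinase gene, had 132, 119.8 and 129 CPM in Huh7 P and 117, 101 and 106 CPM in Huh7 LR. The ranges did not overlap, although the highest Huh7 LR library came within a few CPM of the lowest Huh7 P library. The means were 127 ± 6.27 CPM (n = 3) and 108 ± 7.94 CPM (n = 3), or -0.23 on the log2 scale (standard error 0.08, edgeR adjusted p = 0.0262) and a ratio of 0.850 (95% interval 0.757 to 0.954). The call was lost when any of 4 libraries was left out, with an adjusted p of 0.0922 without Huh7 P replicate 1, 0.0832 without Huh7 P replicate 3, 0.0608 without Huh7 LR replicate 2 and 0.0911 without Huh7 LR replicate 3. It was also lost in limma-trend on log2(FPKM + 0.1), with an adjusted p of 0.0631.

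PCK1 (ENSG00000124253, chromosome 20, 57561080 to 57568112, plus strand), the cytosolic carboxykinase gene and the best known hormone-regulated gene of the pathway, was close to absent in both lines. The parental libraries held 12, 7 and 25 counts and the resistant ones 23, 11 and 15 counts, which overlap throughout. The log2 fold change was 0.13 with a 95% interval of -1.09 to 1.35 (edgeR adjusted p = 0.868) and does not exclude a 2-fold change in either direction. The summed counts, 49 against 44, gave a ratio per counted read of 1.11 with an exact binomial interval of 0.725 to 1.71, which covers counting error but not the spread between libraries. Its sign turned without Huh7 P replicate 1 (-0.041), Huh7 P replicate 2 (-0.17) or Huh7 LR replicate 1 (-0.23), and the log2 fold change was 0.77 without Huh7 P replicate 3. Per transcript length, PCK2 took 99.9% ± 0.0507 (n = 3) of the summed FPKM of PCK1 and PCK2 in Huh7 P and 99.9% ± 0.0335 (n = 3) in Huh7 LR, a difference smaller than the spread (p = 0.5 by a two-sided exact permutation test, which with 3 libraries a line cannot go below 0.1).

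FBP1 (ENSG00000165140, chromosome 9, 94603133 to 94640249, minus strand), which encodes the liver fructose-1,6-bisphosphatase, had 1.67, 1.57 and 1.87 CPM in Huh7 P and 1.98, 1.87 and 1.64 CPM in Huh7 LR. The ranges overlapped. The log2 fold change was 0.10 (95% interval -0.30 to 0.51, edgeR adjusted p = 0.681), an interval that excludes a 2-fold change. FBP2, the muscle form of the enzyme, was lower than FBP1 per transcript length. It had 0.430 ± 0.0464 FPKM (n = 3) in Huh7 P and 0.600 ± 0.200 FPKM (n = 3) in Huh7 LR, against means of 1.06 and 1.17 FPKM for FBP1. The log2 fold change of FBP2, 0.45, did not pass (edgeR adjusted p = 0.254).

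G6PC (ENSG00000131482, chromosome 17, 42900797 to 42913369, plus strand), the catalytic subunit gene of liver glucose-6-phosphatase, was counted 0, 9 and 0 times in the parental libraries and 90, 35 and 68 times in the resistant ones. It was therefore detected in 1 of 3 parental libraries and in all 3 resistant libraries, and it passed the filter on low counts only through the resistant ones. The mean went from 0.0486 ± 0.0842 CPM (n = 3) to 0.959 ± 0.442 CPM (n = 3), or 4.32 on the log2 scale (standard error 0.85, edgeR adjusted p = 0.00173). The fitted ratio was 20.0 with a 95% interval of 5.49 to 73.2, and the summed counts, 193 against 9, gave a ratio per counted read of 21.4 with an exact binomial interval of 11.1 to 47.6 for counting error alone. Without Huh7 P replicate 2 the other parental libraries were at 0, and the mean Huh7 LR level of G6PC was 21.9 times a level of 3 counts in those libraries. That value leaves out the only parental library with reads and takes no account of the spread in Huh7 LR. It is therefore not a lower limit of the change. With Huh7 P replicate 1 or 3 left out, the log2 fold change was lower, at 3.71 and 3.75. The level of G6PC in Huh7 LR stayed under 1 CPM on average.

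G6PC3 (ENSG00000141349, chromosome 17, 44070735 to 44076344, plus strand), the broadly expressed catalytic subunit gene, had 29.04, 28.4 and 28.8 CPM in Huh7 P and 24.8, 28.9 and 27.3 CPM in Huh7 LR. The ranges overlapped, and the log2 fold change of -0.09 had a 95% interval of -0.27 to 0.09 (edgeR adjusted p = 0.392). Per transcript length, G6PC3 made up 100%, 99.8% and 100% of the summed FPKM of G6PC and G6PC3 in Huh7 P replicates 1 to 3 and 97.3%, 99.0% and 98.2% in those of Huh7 LR. The shares did not overlap and differed by -1.75 percentage points (p = 0.1 by the same exact test, its lower limit). Computed from CPM, which takes no account of transcript length, the difference was -3.33 percentage points. G6PC2, the form of pancreatic islets, had too few counts to test, with 0.0477 ± 0.0486 CPM (n = 3) in Huh7 P and 0.159 ± 0.0749 CPM (n = 3) in Huh7 LR.

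SLC37A4 (ENSG00000137700, chromosome 11, 119024114 to 119030906, minus strand), which carries glucose-6-phosphate into the endoplasmic reticulum for both catalytic subunits, had the smallest fitted change of the 8 genes. Its level was 65.0, 65.9 and 66.3 CPM in Huh7 P and 65.0, 68.5 and 65.2 CPM in Huh7 LR, with overlapping ranges. The log2 fold change was 0.011, and the 95% interval of the ratio, 0.915 to 1.11, leaves room only for small changes (edgeR adjusted p = 0.904). Its sign turned without Huh7 LR replicate 2 (-0.0060). TRAPPC4 lies on the opposite strand, shares 8.79% of the exon bases of SLC37A4 and had 1819 to 2366 counts per library, and counting without strand could not separate the reads of that stretch.

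PPARGC1A (ENSG00000109819, chromosome 4, 23755041 to 23904089, minus strand) was counted 8, 8 and 15 times in the parental libraries and 19, 21 and 25 times in the resistant ones. All 3 Huh7 LR libraries lay above all 3 Huh7 P libraries, but at 0.157 ± 0.0635 CPM (n = 3) and 0.319 ± 0.0411 CPM (n = 3) the coactivator gene was scarce in both. The log2 fold change was 1.02 with a 95% interval of 0.0062 to 2.03, and it did not pass over all genes (unadjusted p = 0.0488, edgeR adjusted p = 0.0931). With each library left out in turn the adjusted p lay between 0.0676 and 0.253. The gene reached the filter's level of 0.149 CPM in 1 Huh7 P library and in 3 Huh7 LR libraries, so it too was tested only because of the resistant line.

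**Figure D2:**
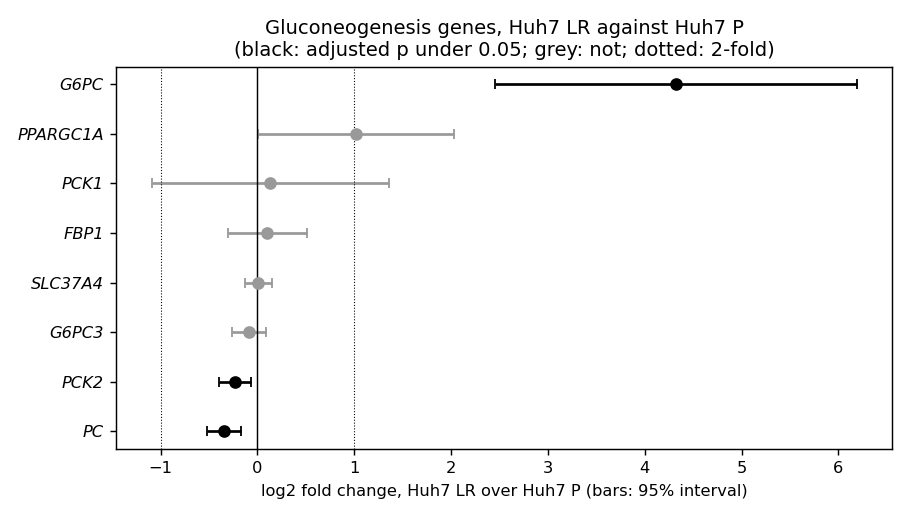
Log2 fold change of each gluconeogenesis gene in Huh7 LR over Huh7 P, with its 95% interval, from edgeR. G6PC, at 4.32, lies far to the right with a wide interval, PC and PCK2 lie at -0.35 and -0.23 with narrow ones, and the intervals of PCK1 and PPARGC1A, both low in counts, are wide.

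Per transcript length, the members fell into the same broad order in both lines except for G6PC. In Huh7 P the mean FPKM was 62.8 ± 2.37 for PC, 52.5 ± 2.56 for PCK2, 26.4 ± 2.09 for SLC37A4, 17.3 ± 0.443 for G6PC3 and 1.06 ± 0.0863 for FBP1 (n = 3 each), and these 5 did not overlap with their neighbours. PCK1, PPARGC1A and G6PC followed at 0.0457, 0.0218 and 0.0132 FPKM and overlapped with each other. In Huh7 LR the mean FPKM was 49.8 ± 4.19 for PC and 45.0 ± 5.49 for PCK2 (n = 3 each), and here these 2 genes overlapped. G6PC was sixth in Huh7 LR at 0.303 ± 0.116 FPKM (n = 3), above PCK1 and PPARGC1A without overlap and below FBP1 at 1.17 ± 0.114 FPKM (n = 3). In both lines the genes of the mitochondrial entry steps, PC and PCK2, were above the other members, and FBP1, PCK1 and G6PC, through which liver cells complete the route, were below G6PC3 in every library.

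**Figure D3:**
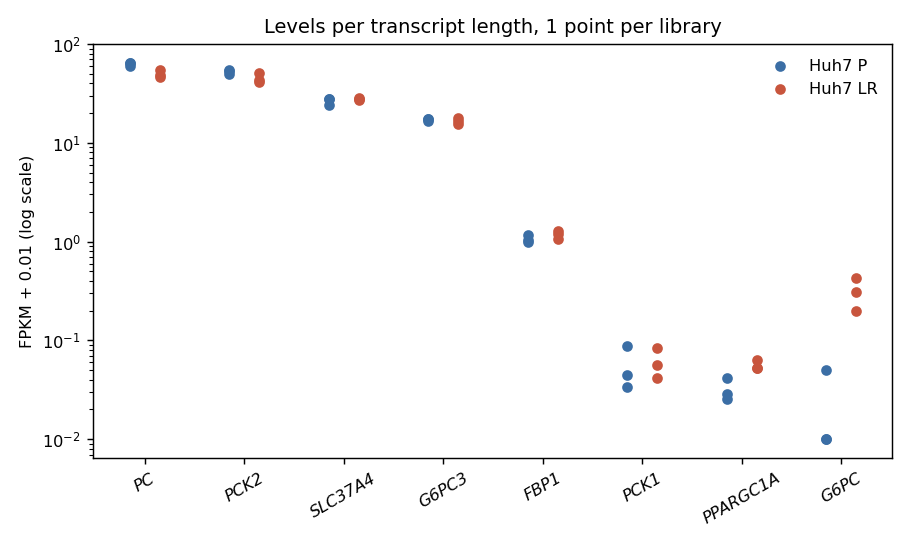
FPKM of each gluconeogenesis gene in each library (log axis, with 0.01 added so that libraries at 0 can be drawn), Huh7 P in blue and Huh7 LR in red. The 4 most abundant genes lie above 10 FPKM in both lines, FBP1 near 1, and G6PC moves from the bottom of the order to between FBP1 and PCK1.

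Around these genes, the enzymes of the reversible steps that gluconeogenesis shares with glycolysis were mostly lower in Huh7 LR. Of 12 such genes 11 were tested, and 8 fell, 1 rose and 2 did not pass, with a median log2 fold change of -0.33. This is 72.7% lower and 9.09% higher, beside 22.4% and 23.3% over everything tested. GPI, which interconverts glucose-6-phosphate and fructose-6-phosphate, fell from 305 ± 29.2 CPM to 194 ± 8.40 CPM (n = 3; log2 fold change -0.65, edgeR adjusted p = 8.4e-05). ENO1 and PGAM1, the steps just above phosphoenolpyruvate, had log2 fold changes of -0.45 each. ALDOC, the brain aldolase, had one of -0.79 (adjusted p = 0.0144) and did not pass without Huh7 P replicate 1 (0.0546). The count of genes that rose was 0 without Huh7 P replicate 1 or Huh7 LR replicate 3. Without Huh7 P replicate 2, 5 genes fell in place of 8.

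In the list of substrate entry and shuttles, 18 of 21 genes were tested, 8 fell, 3 rose and 7 did not pass, with a median log2 fold change of -0.22. The shares were 44.4% lower and 16.7% higher, beside the same 22.4% and 23.3%. LDHA, the lactate dehydrogenase gene of these cells, fell from 901 ± 47.7 CPM to 621 ± 21.6 CPM (n = 3; log2 fold change -0.54, edgeR adjusted p = 1.12e-04). The dicarboxylate carrier SLC25A10 and fumarase FH had log2 fold changes of -0.71 and -0.60. GPD1, which passes glycerol 3-phosphate to the pathway, had one of -1.06 (adjusted p = 0.00132). Those that rose were GPT, cytosolic alanine aminotransferase, with 0.78 (adjusted p = 9.64e-04), glycerol kinase GK with 0.39, and MPC1, a subunit of the mitochondrial pyruvate carrier that supplies PC, with 0.26 (adjusted p = 0.00677).

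Of 20 genes of the opposing glycolytic steps, 18 were tested, 6 rose, 5 fell and 7 did not pass, with a median log2 fold change of -0.071. At 33.3% higher and 27.8% lower, the list lay near the 23.3% and 22.4% of everything tested. GCKR rose from 6.56 ± 0.944 CPM to 11.3 ± 1.08 CPM (n = 3; log2 fold change 0.79, edgeR adjusted p = 6.49e-04). The hexokinase genes HK1, HKDC1 and HK2 fell, with log2 fold changes of -1.06, -1.06 and -0.50, and HK2 went from 85.4 ± 4.75 CPM to 60.2 ± 4.90 CPM (n = 3). At the pyruvate kinase step, PKLR, the liver and red cell form, rose by 0.72 on the log2 scale (adjusted p = 0.00837) and PKM, the form of most growing cells, fell by 0.44 (adjusted p = 0.00232). PFKL, the liver phosphofructokinase, had a value of 0.23 (adjusted p = 0.0404), which did not pass without Huh7 P replicate 1, 2 or 3 or Huh7 LR replicate 2 or 3 (adjusted p 0.109, 0.0836, 0.111, 0.0755 and 0.14). PDK3, which restrains pyruvate dehydrogenase, rose by 0.86 on the log2 scale, and PFKFB4, which makes fructose 2,6-bisphosphate, by 0.64 (adjusted p = 0.0168). PFKFB4 did not pass without Huh7 P replicate 1, Huh7 P replicate 3 or Huh7 LR replicate 1 (adjusted p 0.0761, 0.0718 and 0.0585). Without Huh7 P replicate 3, 3 genes of this list rose in place of 6. Under the alternatives that kept all libraries, 3 to 5 genes of this list fell, and HK1 and HKDC1 could not be tested by limma-trend.

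Of 35 hormonal and transcriptional regulators 34 were tested, and 12 rose, 7 fell and 15 did not pass, with a median log2 fold change of 0.15. These are 35.3% higher and 20.6% lower, against 23.3% and 22.4% over everything tested. FOXO1, the insulin-restrained activator of G6PC and PCK1, rose from 6.07 ± 0.156 CPM to 11.98 ± 0.561 CPM (n = 3; log2 fold change 0.98, edgeR adjusted p = 2.90e-05). CEBPA, a liver transcription factor, rose from 308 ± 3.77 CPM to 461 ± 25.8 CPM (n = 3; log2 fold change 0.58), and the glucocorticoid receptor NR3C1 rose by 0.46 on the log2 scale (adjusted p = 0.00401). CREB1, the cyclic AMP-responsive factor, and PPARGC1B, the relative of PPARGC1A, fell, with -0.38 and -0.39 (adjusted p = 0.00339 and 0.0039). TRIB1, a pseudokinase gene, rose by 0.67 on the log2 scale, and the insulin receptor substrate gene IRS2 by 0.69 (adjusted p = 0.046), which did not pass without any of Huh7 P replicates 1, 2 and 3 or Huh7 LR replicates 1 and 3 (adjusted p 0.0634, 0.106, 0.147, 0.194 and 0.0812). The log2 fold change of IRS2 was 0.37 without Huh7 LR replicate 1. PRKAA1 and PRKAA2, the catalytic subunit genes of AMP-activated kinase, went opposite ways, with -0.41 and 0.46 (adjusted p = 0.00381 and 0.0237), PRKAA2 being named after its values were seen. PRKAA2 did not pass without Huh7 P replicate 2 or 3 or Huh7 LR replicate 1 or 3 (adjusted p 0.089, 0.0805, 0.0611 and 0.114) or by limma-trend on log2(FPKM + 0.1) (0.0529). TRIB3 was at -0.44 (adjusted p = 0.0116), lost without Huh7 LR replicate 3 (0.0561). HNF4A was at -0.061 (adjusted p = 0.608), which turned to 0.37 on FPKM values and to 0.024 without Huh7 LR replicate 1. KAT2A, which acetylates PGC-1α, had -0.20 (adjusted p = 0.0463) and was lost without Huh7 P replicate 1 or 2 or Huh7 LR replicate 1 or 3 (adjusted p 0.086, 0.213, 0.108 and 0.114). KAT2A was also lost with no filter (0.0576), with at least 10 counts in every library (0.0545) and on both FPKM scales (0.0883 and 0.0876). The deacetylase SIRT1 had -0.24 (adjusted p = 0.0619), which passed without Huh7 LR replicate 3 (0.049). With Huh7 P replicate 1, Huh7 P replicate 2 or Huh7 LR replicate 3 left out, 4 regulators fell in place of 7.

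In glucose transport and glycogen metabolism, 18 of 19 genes were tested, 8 rose, 3 fell and 7 did not pass, with a median log2 fold change of 0.20. That is 44.4% higher and 16.7% lower, where 23.3% and 22.4% of everything tested were. SLC2A2, the GLUT2 transporter through which hepatocytes release glucose, rose from 33.2 ± 1.69 CPM to 76.3 ± 12.6 CPM (n = 3; log2 fold change 1.20, edgeR adjusted p = 8.58e-06). SLC2A1, the GLUT1 transporter, fell from 80.8 ± 0.997 CPM to 55.9 ± 2.96 CPM (n = 3; log2 fold change -0.53). SLC2A12 and the glycogen genes PPP1R3C and GBE1 had log2 fold changes of 1.09, 0.87 and 0.75. UGP2, which supplies UDP-glucose, had one of -0.41 (adjusted p = 0.00104). The liver glycogen synthase gene GYS2 was at -1.83 (adjusted p = 0.0494), which did not pass without any of Huh7 P replicates 1, 2 and 3 or Huh7 LR replicate 3 (adjusted p 0.099, 0.114, 0.108 and 0.0507). GYS2 had 41, 0 and 48 counts in the Huh7 LR libraries against 99 to 108 in Huh7 P, and it did not pass in DESeq2 (0.353) or with DESeq2's size factors in edgeR (0.0509).

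Of 15 mitochondrial genes linked to PGC-1α, 7 fell, 1 rose and 7 did not pass, with a median log2 fold change of -0.31. The share lower was 46.7%, and the share higher 6.67%, beside 22.4% and 23.3% over everything tested. TFB2M and TFAM, which serve mitochondrial transcription, fell from 35.8 ± 1.47 CPM to 18.5 ± 0.929 CPM and from 92.3 ± 1.30 CPM to 58.2 ± 7.26 CPM (n = 3 each), with log2 fold changes of -0.95 and -0.67. GABPA and NRF1, transcription factors of nuclear genes for mitochondria, were at -0.56 and -0.37, NRF1 not passing without Huh7 P replicate 2 (adjusted p = 0.0543). CPT1A, the carnitine palmitoyltransferase of liver, had one of 0.71 (edgeR adjusted p = 7.29e-05), and without Huh7 LR replicate 2 a second gene rose. Of 14 ATF4 and serine synthesis genes, a group in which PCK2 is often placed, 7 fell, 4 rose and 3 did not pass, with a median log2 fold change of -0.29. The share higher was 28.6%, and the 7 that fell of 14 stand beside the same 22.4% lower over everything tested. ASNS, PSAT1 and SHMT2 fell beside PCK2, with -0.74, -0.54 and -0.34, whereas DDIT3, SESN2 and VLDLR rose, with 1.07, 0.48 and 0.79. TRIB3, also in this list, fell, and PSPH, the last enzyme of serine synthesis, was at 0.27 (adjusted p = 0.0108) and did not pass without Huh7 P replicate 3 (0.0513) or by limma-trend on either FPKM scale (0.0554 and 0.0546). Without Huh7 LR replicate 3, 4 genes of that list fell in place of 7.

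**Figure D4:**
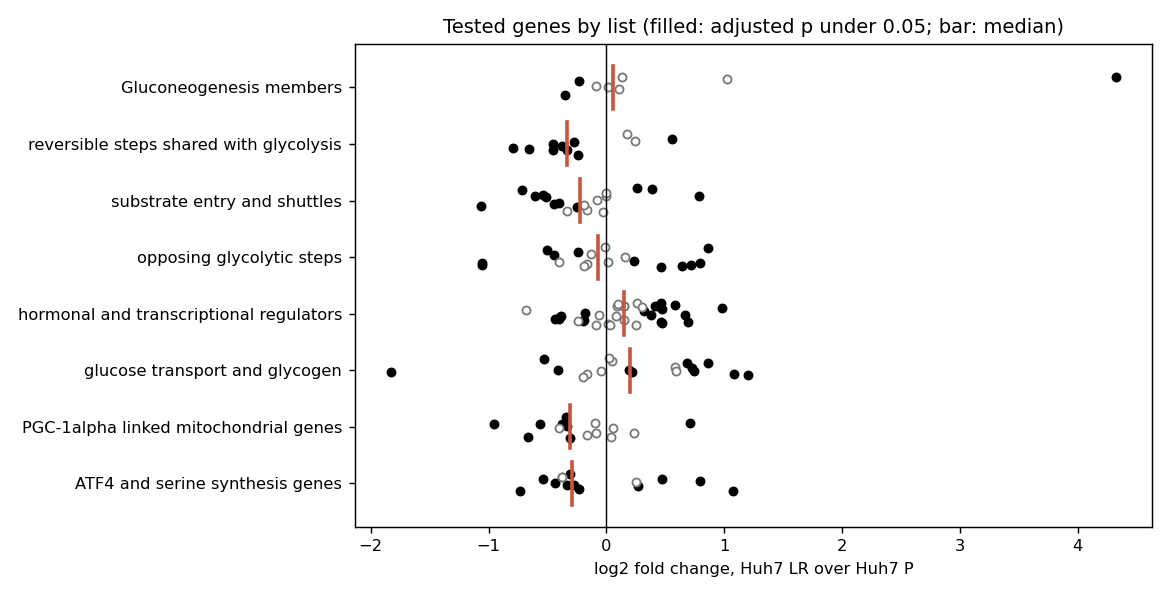
Log2 fold change in Huh7 LR over Huh7 P of every tested gene of the gluconeogenesis list and of 7 related lists (filled circles, adjusted p under 0.05; open circles, not; red bars, list medians). The medians run from -0.33 for the shared reversible steps to 0.20 for glucose transport and glycogen, and G6PC stands apart at 4.32.

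Among tested genes that start within 1 Mb of each member, the median log2 fold change was 0.0051 over 53 genes around G6PC, 0.10 over 56 genes around PC and 0.16 over 48 genes around PCK2. Across the 6 libraries, the 5 genes whose log2 CPM was most like that of PC, chosen as the called member with the largest change and at least 1 CPM, were VPS37B, GALR2, ANKRD11, MCM6 and RFWD3, with Pearson's r between 0.9975 and 0.9989. The libraries fall into 2 groups, and 1491 of 14052 genes had r above 0.9 with PC.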

How the data were processed

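RNA-seq of 3 Huh7 P and 3 Huh7 LR samples was analysed from 1 deposited table, grouped by sample title. The authors deposited, for each gene and library, a read count without normalization and an FPKM value that they scaled for transcript length and library size. The submitters' processing notes name TopHat2, Cufflinks and DESeq, and the mouse build mm10 beside human identifiers; their extraction text describes an insect. Versions, annotation and the use of strand are not given in the sources used here. All 19974 annotated identifiers occur in GENCODE release 29, whose GRCh38 positions are used, and 34 lines that name no gene were dropped. Of SOD2's identifiers, the one paired in RefSeq was used.

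Counts were filtered with filterByExpr (minimum count 10, minimum total 15), scaled by TMM (factors 0.977 to 1.03) and compared with edgeR 4.0.16 in R 4.3.3, with Benjamini-Hochberg adjustment over everything tested. Each standard error is the fitted change divided by the root of its F value. The related lists were written from general knowledge; members and lists were chosen with earlier results of these data known. All members are named, and from each list the called genes with the largest changes, up to 4 in either direction, and a fixed set that acts on a member's step. Likeness was Pearson's r over log2 CPM. Alternatives were DESeq2 1.42.0 and its size factors, other filters, a replicate block, limma-trend (limma 3.58.1) with 0.1 or 1 added to FPKM before log2, keeping those that reached 0.5 FPKM in 3 libraries, and each library left out. On simulated data for this comparison, edgeR recovered 199 of 200 changed genes among 17280 tested, with 19 unchanged genes called. The changes were planted only in genes above 1 CPM on average, and all were past 2-fold. This recovery therefore does not cover genes as low as PCK1, G6PC and PPARGC1A, or changes as small as those of PC and PCK2. Shares were compared by exact permutation tests in scipy 1.17.1. Figures used matplotlib 3.10.9. Results for some genes under the naming rule are not reported here.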

Additional observations from a re-analysis of the deposited data

How the results depend on the processing

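Among alternative values of the members and their counts, 128 kept their direction and side of the threshold and 24 did not. G6PC passed in all 10 alternatives that could test it (log2 fold change 3.71 to 9.03, the highest without Huh7 P replicate 2, where the fit has no parental counts, and adjusted p 3.14e-04 to 0.042), and PC in all 13 (-0.41 to -0.29). PCK1, G6PC and PPARGC1A could not be tested with at least 10 counts in every library or by limma-trend on FPKM values, so the members that rose numbered 0 there. With limma-trend 1 member fell, since PCK2 had log2 fold changes of -0.23 and -0.22 (adjusted p = 0.0631 and 0.062). The members past 2-fold numbered 1 with no filter and 1 at an adjusted p under 0.05, and also 1 at an unadjusted p under 0.001, a threshold added after the data were seen. With a library left out, between 1 and 2 members fell, 0 to 1 were past 2-fold, and the log2 fold changes ranged from -0.23 to 0.77 for PCK1, -0.29 to -0.18 for PCK2 and -0.0060 to 0.024 for SLC37A4. Those of FBP1 ranged from 0.043 to 0.175 and those of G6PC3 from -0.134 to -0.034, never passing. On CPM in place of FPKM the share of G6PC3 differed by -3.33 percentage points. HNF4A reversed to 0.37 on both FPKM scales and ranged from -0.11 to 0.024 with a library left out. Where no construction is named, the cause was not tested. Libraries with the same number correlated in their deviations by 0.0323 to 0.0337, each best with its own number but under 0.1, so the numbers were not taken to pair the samples. With the replicate as a block 1 member rose and 2 fell, and PC was at -0.35 (adjusted p = 0.00376).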

Other observations

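At some steps next to gluconeogenesis, but not at others, the liver form of an enzyme or transporter made up a larger part of the summed FPKM in every Huh7 LR library than in any Huh7 P library. These pairs were chosen after their values were seen and were not tested. SLC2A2 took 31.9% ± 1.12 (SD, n = 3) of the sum of SLC2A2 and SLC2A1 in Huh7 P and 61.0% ± 4.56 (SD, n = 3) in Huh7 LR, so that the liver glucose transporter went from the smaller to the larger part. For GPT with GPT2 the share of GPT was 8.44% ± 1.14 and 13.7% ± 1.18 (SD, n = 3 each). PKLR stayed a minor form, with 0.339% ± 0.048 and 0.751% ± 0.259 of the PKLR and PKM sum (SD, n = 3 each). FBP1 made up 68.2% to 74.3% of the FBP1 and FBP2 sum in Huh7 P and 60.4% to 70.3% in Huh7 LR, with overlap. GYS2, the liver glycogen synthase gene, went the other way, from 1.63% to 1.90% of the GYS2 and GYS1 sum in Huh7 P to between 0% and 0.804% in Huh7 LR. For the carboxykinases the shares overlapped, with PCK2 at 99.9% on average in both lines.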
